A study of Mus musculus with 8 samples.

Results

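Transcripts of 9 genes that encode subunits of Polycomb repressive complex 1 (PRC1) were examined in mouse embryonic fibroblasts (MEFs): Bmi1, Ring1, Rnf2, Cbx2, Cbx6, Cbx7, Cbx8, Phc1 and Phc2. They were taken by name, through every gene probe of the array that carries one of these symbols. This gave 19 probes of 41174, for 9 of the 27745 gene names on the array. Fibroblasts of Lats2-/- embryos were set against Lats2+/+ fibroblasts from the same litter, in litters 112, 116 and 121, and the labels name the strain C57BL/6J for both and no treatment. Lats2 is a kinase that, in Hippo signalling, restrains the coactivators Yap and Taz. Each litter gave 1 RNA extract per genotype, each from its own numbered clone, and both extracts of a litter were hybridised together with Cy3 and Cy5 on 2, 2 and 4 arrays with swapped dyes, 8 arrays in all. The labels give neither the mutated allele, nor the age of the embryos, nor the passage of the cells.

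PRC1 is a chromatin complex that places ubiquitin on histone H2A and compacts nucleosomes at silent developmental genes. Its catalytic centre is a pair of RING proteins, Ring1 or Rnf2 with a PCGF partner such as Bmi1. In the canonical form, a CBX protein reads the methyl mark that Polycomb repressive complex 2 (PRC2) sets on histone H3, and a PHC protein joins complexes together. In fibroblasts PRC1 is best known for silencing the Cdkn2a and Cdkn2b cell cycle inhibitor locus, where loss of Bmi1 leads to early senescence. The study asked how Lats2 bears on Polycomb repression. Its main subject was PRC2, so that the PRC1 transcripts are a neighbouring readout on the same arrays.

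Results turned mainly on 4 genes: Phc1, with signals of its brightest probe that did not overlap between the genotypes, Cbx6, with lower signals in every litter, Cbx7, with a signal near background in 1 extract, and Cbx8, 1 of 5 genes whose ratio changed sign between litters (with Rnf2, Cbx2, Cbx7 and Phc2). The start-site sequences of these 4 are shown to place them. They are from RefSeq on GRCm38.p6, with 250 bases before and 50 after the annotated start, 5′ to 3′ along the gene, and all 4 genes lie on the minus strand. Capitals mark CG dinucleotides. Phc1 is at chr6:122340178-122340477, Cbx6 at chr15:79834284-79834583, Cbx7 at chr15:79932597-79932896 and Cbx8 at chr11:119040864-119041163.
Phc1: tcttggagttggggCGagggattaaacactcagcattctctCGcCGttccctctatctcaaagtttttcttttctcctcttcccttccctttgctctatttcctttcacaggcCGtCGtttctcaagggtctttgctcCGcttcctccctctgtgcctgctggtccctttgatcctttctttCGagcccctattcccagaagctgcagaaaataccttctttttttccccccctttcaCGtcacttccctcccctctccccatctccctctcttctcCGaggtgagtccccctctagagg
Cbx6: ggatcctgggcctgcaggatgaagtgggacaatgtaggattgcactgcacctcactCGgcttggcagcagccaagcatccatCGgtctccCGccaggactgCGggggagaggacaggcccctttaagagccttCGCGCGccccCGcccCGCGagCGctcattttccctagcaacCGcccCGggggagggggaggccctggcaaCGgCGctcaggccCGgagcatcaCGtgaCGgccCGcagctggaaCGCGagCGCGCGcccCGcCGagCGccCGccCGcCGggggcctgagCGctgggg
Cbx7: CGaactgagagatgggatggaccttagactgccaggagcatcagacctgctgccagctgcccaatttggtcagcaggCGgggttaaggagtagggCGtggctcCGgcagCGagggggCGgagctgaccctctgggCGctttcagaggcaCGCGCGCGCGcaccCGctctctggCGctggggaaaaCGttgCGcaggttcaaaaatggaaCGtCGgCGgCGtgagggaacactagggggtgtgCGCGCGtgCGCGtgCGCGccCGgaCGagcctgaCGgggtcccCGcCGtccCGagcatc
Cbx8: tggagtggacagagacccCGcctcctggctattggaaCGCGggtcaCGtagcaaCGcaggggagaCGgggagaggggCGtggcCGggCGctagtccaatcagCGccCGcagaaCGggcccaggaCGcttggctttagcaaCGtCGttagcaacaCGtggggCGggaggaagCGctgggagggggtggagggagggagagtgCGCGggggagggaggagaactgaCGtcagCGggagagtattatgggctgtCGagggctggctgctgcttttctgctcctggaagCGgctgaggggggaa
The Cbx6, Cbx7 and Cbx8 windows hold 31, 33 and 24 CG dinucleotides and the Phc1 window holds 9, against a median of 7 over 32851 promoter windows. Of the 9 genes, 8 have 10 such windows in the table. The letters GGAATG, which TEAD factors of the Hippo pathway are known to bind, were searched on both strands and occur in 14.7% of all windows, and among the 10 in the single window of Bmi1. The letters TTTNNCGC, an E2F motif, occur in 5.17% of all windows and in none of the 10.

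The log2 ratio of a probe is given throughout as Lats2-/- over Lats2+/+, after loess within each array and averaging over the arrays of a litter, so that 1 unit is a 2-fold difference and n is 3 litters. A log2 signal is the brightness of 1 extract after scaling between arrays. It is compared only within a probe. An extract counted as well above background for a probe when most of its arrays were. Kept probes had to reach this in 2 or 3 of the 3 extracts of a genotype, which held for 22648 probes and for 14778 genes by their brightest probe. Of the 19 PRC1 probes, 17 were kept and all 9 genes had at least 1. The 2 that were not, the weaker probes of Cbx2 (A_51_P300245) and Phc2 (A_52_P424620), were not well above background in any of the 6 extracts.

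The series was checked first. Between 52.9% and 61.4% of probes were well above background per array channel. The upstream Lats2 probe was lower in Lats2-/- on 8 of 8 arrays, with ratios of -1.33, -1.05 and -0.56 in litters 112, 116 and 121. The other 3 Lats2 probes lay between -0.70 and -0.18 in litters 112 and 116 but between 0.80 and 1.17 in litter 121, against the label. The labels do not say which part of Lats2 is deleted. On these arrays the genotype of the extracts labelled as litter 121 has the backing of 1 of 4 probes and is in doubt. The study's supplement shows the knockout in MEFs at the protein level by western blot, and the legend names no litter. Litter 121 is alone on its slide, so that litter and slide cannot be told apart, and means without it are given below for the genes where they differ by over 1.5 times. Of 10 fibroblast markers, 9 or 10 were above background in every extract, and Lum was the one that was missed. Of the pluripotency markers 0 of 4 were above background in any extract. An extract had 0 to 2 of 6 neural, 0 to 2 of 6 endothelial, 1 to 2 of 6 skeletal muscle, 1 to 3 of 6 blood cell and 2 to 4 of 6 epithelial markers above background.

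None of the 9 genes passed the adjusted threshold. Limma's test of the litter ratios called 0 of 22648 probes at an adjusted p under 0.05 (0%), with 1549 probes at an unadjusted p under 0.05, and the methods' t-test gave 0 after the same adjustment. The adjusted p of the genes' brightest probes lay between 0.711 and 0.986. By brightest probe, 4 of the 9 genes had a mean ratio above 0 and 5 below. The median of the 9 means was -0.03, and that of all 14778 genes was 0.01. At an unadjusted p under 0.05, 1 of 9 was higher (Phc1), against 4.15% of all genes, and 0 of 9 were lower, against 3.45%. No gene reached 2-fold in the mean with such a p, against 1.09% of all genes. The 95% intervals of the means allowed a change of at most 1.41-fold for Ring1, the narrowest bound, and of up to 2.46-fold for Cbx2. The interval of Cbx7 takes a litter with only a bound at its measured ratio and sets no upper limit. The failure to pass the threshold does not show that levels were equal.

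**Figure D1:**
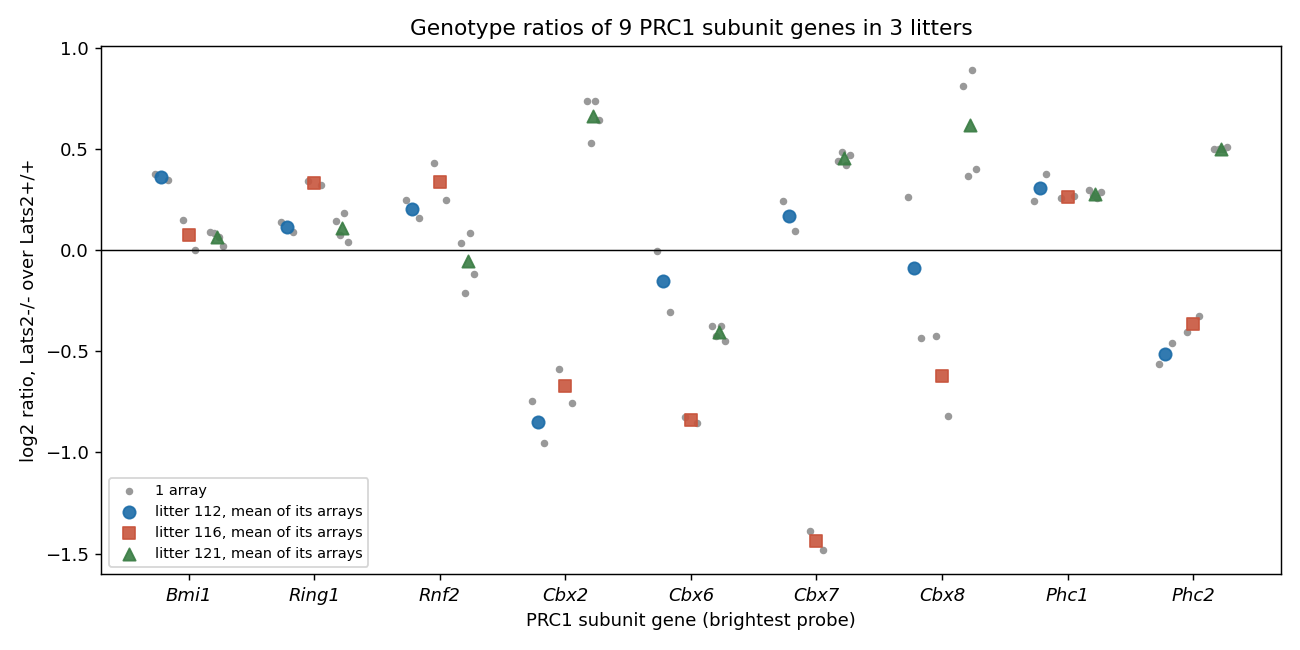
Log2 ratios of Lats2-/- over Lats2+/+ (y axis) for the brightest probe of each PRC1 gene (x axis). Coloured symbols are the means of litters 112, 116 and 121 and grey points are single arrays. Phc1 lies between 0.26 and 0.31 in all litters, whereas Cbx2, Cbx8 and Phc2 lie below 0 in litters 112 and 116 and above 0 in litter 121.

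Neither catalytic RING subunit passed the test, and the intervals of their means reached 1.41-fold for Ring1 and 1.43-fold for Rnf2. Ring1 (A_51_P455266; chromosome 17, 33631673 to 33631732, mm8), a RING E3 ligase of the core, had log2 signals of 8.11, 8.45 and 8.17 in Lats2-/- extracts of litters 112, 116 and 121, and of 7.99, 8.12 and 8.06 in Lats2+/+ extracts. The signal was higher in the Lats2-/- extract of every litter, although the ranges of the genotypes overlapped. Its ratios of 0.11, 0.33 and 0.11 gave a mean of 0.19 ± 0.13 (SD over 3 litters; unadjusted p of 0.164 and adjusted p of 0.758, limma), and the ratio was above 0 on 8 of 8 arrays. The second Ring1 probe (A_52_P41728) had ratios of -0.03, 0.22 and 0.01. The ratio was above 0 in every litter by 1 of the 2 probes, and its mean was 0.11 without litter 116.

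Rnf2 (A_51_P382253; chromosome 1, 153232075 to 153232134, mm8), also called Ring1b, is the main H2A ubiquitin ligase of the complex. Its log2 signals were 10.26, 10.34 and 10.18 in Lats2-/- and 10.06, 10.01 and 10.23 in Lats2+/+ extracts, so that litter 121 ran slightly below its wild type and the others above. The ratios were 0.20, 0.34 and -0.05, with a mean of 0.16 ± 0.20 (SD over 3 litters; unadjusted p of 0.271 and adjusted p of 0.80, limma). The second probe (A_52_P149743) repeated the signs, with 0.25, 0.37 and -0.11. By both probes litter 121 was the only litter below 0. The mean of the brighter probe was 0.27 without litter 121 and 0.074 without litter 116.

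Bmi1, also Pcgf4, is the PCGF partner that stimulates the ligase and restrains Cdkn2a. Its brighter probe (A_52_P39157; chromosome 2, 18604114 to 18604173, mm8) had log2 signals of 9.79, 9.34 and 9.37 in Lats2-/- and 9.43, 9.27 and 9.30 in Lats2+/+ extracts, with ratios of 0.36, 0.07 and 0.06. The mean of 0.17 ± 0.17 (SD over 3 litters; unadjusted p of 0.235 and adjusted p of 0.788, limma) rested largely on litter 112, and was 0.068 without it. The second probe (A_51_P121547) had ratios of 0.06, 0.11 and -0.17. A difference of Bmi1 beyond the spread between litters was not detected by either probe.

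Among the CBX readers, ratios went in opposite directions in different litters for 3 of 4. Cbx2 (A_52_P13730; chromosome 11, 118847139 to 118847198, mm8), a reader that also compacts chromatin, had log2 signals of 7.90, 8.33 and 8.50 in Lats2-/- and 8.75, 8.997 and 7.83 in Lats2+/+ extracts. In litters 112 and 116 the Lats2-/- extract was the lower, and in litter 121 it was the higher. The ratios of -0.85, -0.67 and 0.66 gave a mean of -0.29 ± 0.83 (SD over 3 litters; unadjusted p of 0.468 and adjusted p of 0.879, limma). The mean depended on which litters entered: it was -0.0057 without litter 112, -0.095 without litter 116 and -0.76 without litter 121, with unadjusted p of 0.990, 0.852 and 0.0155 (adjusted p = 0.733 for the last) in limma. It was -0.050 with slide as a random block.

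Cbx6 was lower in Lats2-/- cells in each litter. It encodes a less studied CBX protein, and its brightest probe (A_51_P391764; chromosome 15, 79653401 to 79653460, mm8) had log2 signals of 12.04, 12.66 and 12.37 in Lats2-/- against 12.19, 13.50 and 12.78 in Lats2+/+ extracts. The wild-type extracts alone spanned 1.31 log2 units, and the genotypes overlapped. The ratios were -0.15, -0.84 and -0.41, with a mean of -0.47 ± 0.35 (SD over 3 litters), or 72.4% of the wild-type level, and limma gave an unadjusted p of 0.0565 (adjusted p = 0.711). The other probes (A_51_P221428 and A_52_P392121) had means of -0.40 and -0.38. Of 24 values over 3 probes and 8 arrays, 23 were below 0, and in litter 112 the brightest probe's 2 arrays were -0.30 and -0.0044. Without litter 116 the mean was -0.28.

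Cbx7, the reader most tied to Cdkn2a silencing in fibroblasts, lies next to Cbx6 and has 1 probe (A_52_P263774; chromosome 15, 79743093 to 79743152, mm8). Its log2 signals were 7.15, 6.27 and 7.24 in Lats2-/- and 6.98, 7.71 and 6.79 in Lats2+/+ extracts. The Lats2-/- extract of litter 116 was not well above background on any array, whereas its wild-type littermate had the highest signal of the 6. In that litter Cbx7 was at least 2.71-fold lower in Lats2-/- cells, the bound being the measured means of 7.71 and 6.27. The ratios in the other litters were 0.17 and 0.45, and the fitted mean was -0.27 ± 1.02 (SD over 3 litters; unadjusted p of 0.568 and adjusted p of 0.915, limma). The mean was -0.49 without litter 112, 0.31 without litter 116, -0.63 without litter 121 and -0.091 with slide as a random block. With the processed signals of Feature Extraction the mean over all litters was -0.77.

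Cbx8 shares its chromosomal neighbourhood with Cbx2. The brighter probe (A_52_P89273; chromosome 11, 118852429 to 118852488, mm8) had log2 signals of 8.79, 9.46 and 9.39 in Lats2-/- and 8.88, 10.08 and 8.78 in Lats2+/+ extracts, and ratios of -0.09, -0.62 and 0.62. The mean was -0.03 ± 0.62 (SD over 3 litters; unadjusted p of 0.914 and adjusted p of 0.986, limma), and it was -0.0040 without litter 112 and -0.36 without litter 121, and turned to 0.26 without litter 116 and to 0.13 with slide as a random block. In litter 112 its dye-swapped arrays gave 0.26 and -0.44, so that the sign there depended on the dye. The second probe (A_52_P229997) gave -0.38, -0.14 and 0.30, with arrays of litter 112 at -0.42 and -0.35. Both probes had litter 121 as the only litter above 0.

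Of the Polyhomeotic subunits, Phc1 was above its wild type in every litter and Phc2 in 1 of 3, and the difference between them was not tested. Phc1 (A_52_P243553; chromosome 6, 122283899 to 122283958, mm8), a SAM domain protein that clusters PRC1, had log2 signals of 8.92, 8.83 and 8.91 in Lats2-/- and 8.61, 8.57 and 8.63 in Lats2+/+ extracts. Every Lats2-/- extract was above every wild-type extract. Signals of the 2 genotypes did not overlap, counting either direction, for 1 of the 9 genes and for 6.25% of all genes. The ratios of 0.31, 0.26 and 0.28 gave a mean of 0.28 ± 0.02 (SD over 3 litters), or 122% of wild type, with an interval from 0.02 to 0.55 (unadjusted p of 0.0429 and adjusted p of 0.711, limma). Its litter SD was lower than in all but 1.23% of genes. The other probes (A_51_P433430 and A_52_P373369) had means of 0.36 ± 0.23 and 0.11 ± 0.07 (SD over 3 litters), and 22 of 24 values over 3 probes and 8 arrays were above 0. The genotypes did not overlap by A_51_P433430 but did by A_52_P373369. The unadjusted p in limma was above the threshold under several other settings: 0.0634 with normexp offset 16, 0.146 from the processed signals or the deposited table, 0.0688 with median centring, 0.0523 for probes above background in all 6 extracts and 0.0533 in the unpaired fit. When each litter was left out in turn, it lay between 0.104 and 0.161. With slide as a random block, a fit that takes the 8 arrays as separate observations, the adjusted p was 0.0453. With litter as the random block it was 0.261.

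Phc2 (A_51_P457388; chromosome 4, 128254917 to 128254976, mm8), a paralog of Phc1, had log2 signals of 11.82, 12.10 and 12.54 in Lats2-/- and 12.34, 12.47 and 12.04 in Lats2+/+ extracts. The Lats2-/- extract was the lower in litters 112 and 116 and the higher in litter 121. The ratios of -0.51, -0.37 and 0.50 gave a mean of -0.13 ± 0.55 (SD over 3 litters; unadjusted p of 0.640 and adjusted p of 0.933, limma), and the mean was 0.068 without litter 112, -0.0052 without litter 116, -0.44 without litter 121 and 0.031 when slide was a random block. The 4 arrays of litter 121 lay between 0.50 and 0.51.

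**Figure D2:**
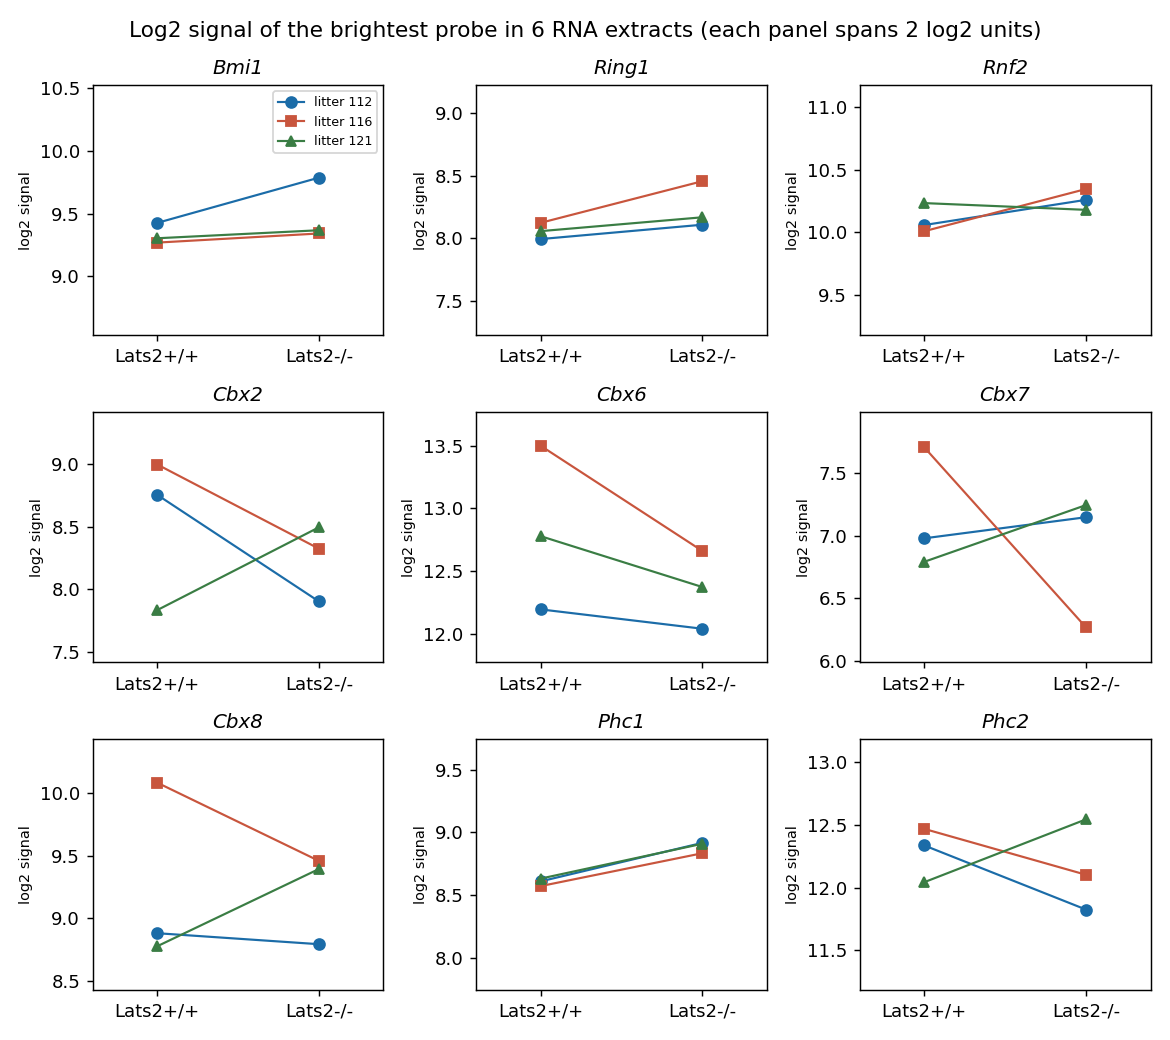
Log2 signals (y axis) of the brightest probe of each PRC1 gene in Lats2+/+ and Lats2-/- extracts (x axis), with lines joining the extracts of a litter and the same span of 2 log2 units in each panel. The lines of Phc1 run together from about 8.6 to 8.9, the wild-type extracts of Cbx6 spread from 12.19 to 13.50, and Cbx7 drops to 6.27 in litter 116.

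The members fell into 5 sign patterns over the litters. Bmi1, Ring1 and Phc1 were higher in all 3 litters, 3 of 9 against 15.9% of all genes. Cbx6 was lower in all 3, 1 of 9 against 14.1%. Cbx2, Cbx8 and Phc2 were lower in litters 112 and 116 and higher in litter 121, 3 of 9 against 11.7%. The downstream Lats2 probes had the same signs. Each of these patterns rests on the direction of litter 121, whose genotype label is in doubt. With that litter turned, Cbx2, Cbx8 and Phc2 would be lower and Rnf2 higher in all 3 litters. Bmi1, Ring1, Phc1 and Cbx6 would then change sign between litters. Rnf2 was higher in litters 112 and 116 and lower in 121, and Cbx7 was lower in litter 116 alone. With 9 genes these counts are descriptions. The SD over litters was above the median of all genes, 0.28, for 5 of the 9: Cbx2, Cbx6, Cbx7, Cbx8 and Phc2. For 6 of the 9, the range of the 3 wild-type extracts was wider than the size of the mean ratio, and the share over all genes was not computed. Between arrays of a litter, which repeat the same extracts, the median SD was 0.07 for the brightest probes.

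**Figure D3:**
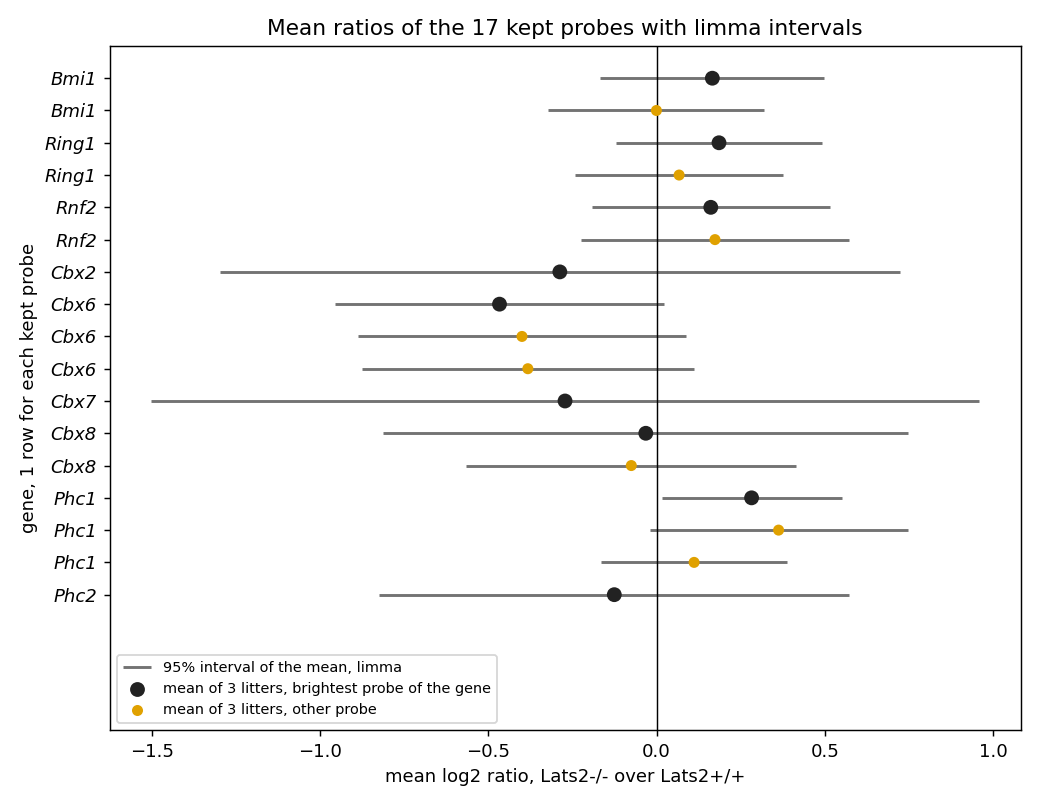
Mean log2 ratio over 3 litters (x axis) for each of the 17 kept probes of the PRC1 genes (y axis), with the 95% interval from limma. The brightest probe of a gene is black and the others are yellow. The interval of 1 probe, the brightest of Phc1, leaves out 0, the 3 Cbx6 probes lie between -0.47 and -0.38, and Cbx7 has the widest interval.

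Median ratios of proliferation genes had the same signs over the litters as the ratios of Cbx2, Cbx8 and Phc2. For the 27 genes of that list they were -0.58, -0.55 and 0.24 in litters 112, 116 and 121, with 26, 26 and 4 of the 27 below 0. Its summed log2 signal lay between 295 and 307 in Lats2-/- and between 289 and 324 in Lats2+/+ extracts, and all 27 were above background in every extract. The 10 fibroblast markers had medians of 0.24, 2.22 and -0.95, and summed signals of 121 to 148 in Lats2-/- and 124 to 138 in Lats2+/+ extracts. The part of growth state or of fibroblast identity in the PRC1 ratios was not tested. In bulk RNA, fewer cells of a type and less RNA per cell cannot be told apart.

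**Figure D4:**
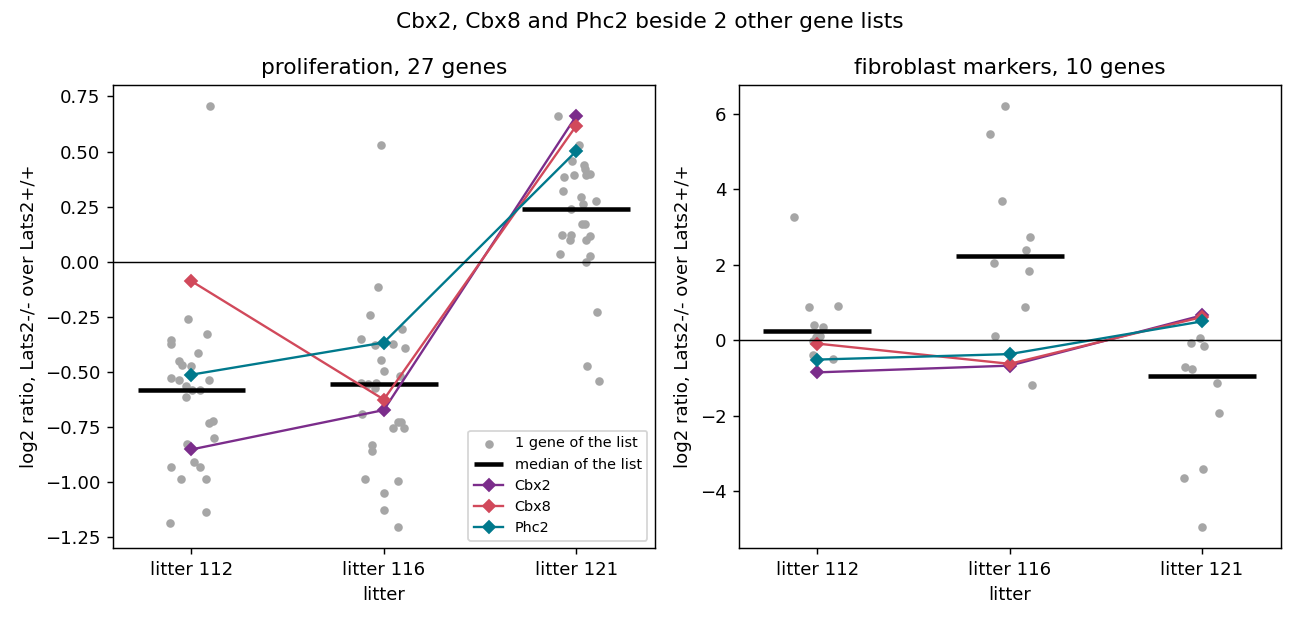
Log2 ratios (y axis) in litters 112, 116 and 121 (x axis) for 27 proliferation genes on the left and 10 fibroblast markers on the right. Grey points are genes, black bars are list medians and coloured lines are Cbx2, Cbx8 and Phc2. The proliferation medians are -0.58, -0.55 and 0.24, and the fibroblast medians are 0.24, 2.22 and -0.95.

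Genes with the most similar profile over the 6 extracts were sought for the 3 members with the largest SD over the extracts, as the smallest root mean square difference of log2 signals centred on their mean. For Cbx6 (SD of 0.52) these were Camk2d at 0.11, Oxct1 at 0.12 and Ltbp1 at 0.13 log2 units. For Cbx8 (SD of 0.51) they were Rsbn1 at 0.12, 1110031I02Rik at 0.12 and Ift80 at 0.13. For Cbx7 (SD of 0.48) they were Klhdc8a at 0.13, D5Wsu178e at 0.13 and Zfand2a at 0.13. With 6 points, such likeness describes these extracts only.

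The remaining PRC1 genes did not pass the test either. Of 21 listed genes of canonical and variant PRC1 outside the 9, 20 had a kept probe, 0 had an unadjusted limma p under 0.05 in either direction (4.15% and 3.45% of all genes), and the smallest adjusted p was 0.717. Their median ratio was -0.11 against 0.01 for all genes. In all 3 litters 6 of the 20 were lower, against 14.1% of all genes, and 1 was higher, against 15.9%. For 1 of the 6, Auts2, named after its values were seen, neither extract of litter 112 was above background, so that its sign there was read from dim signals. Pcgf2, the closest relative of Bmi1, had ratios of 0.29, -0.06 and -0.04 (mean of 0.06 ± 0.20, SD over 3 litters; adjusted p = 0.933, limma), and a mean of -0.050 without litter 112, 0.13 without litter 116 and 0.11 without litter 121. Phc3 was not well above background in any extract.

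Partners and opponents of PRC1 were given from the same lists. The 6 genes of H2A deubiquitination had a median ratio of 0.02 and the 3 HP1 chromobox genes, which read a different histone mark, one of -0.11, and none had an unadjusted p under 0.05 in limma. Of 11 PRC2 genes, with a median of -0.02, 1 was higher at an unadjusted p under 0.05, against 4.15% of all genes, and 1 was lower, against 3.45%, both of them Polycomb-like accessory proteins. Phf1 had log2 signals of 9.47, 9.53 and 9.81 in Lats2-/- and 8.67, 8.95 and 9.42 in Lats2+/+ extracts. Its ratios were 0.80, 0.58 and 0.39, with a mean of 0.59 ± 0.20 (SD over 3 litters; unadjusted p of 0.0107 and adjusted p of 0.711, limma). Phf19 had log2 signals of 8.93, 8.53 and 7.67 in Lats2-/- and 9.72, 9.51 and 8.03 in Lats2+/+ extracts. Its ratios were -0.79, -0.97 and -0.36, with a mean of -0.71 ± 0.31 (SD over 3 litters; unadjusted p of 0.0129 and adjusted p of 0.711, limma). Neither passed the adjusted threshold.

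At the classic PRC1 target locus, signals were far lower in litter 116 than in the other litters, in both genotypes. Cdkn2a, which encodes the inhibitors p16 and p19Arf, had log2 signals of 10.08, 6.59 and 10.60 in Lats2-/- and 10.51, 6.10 and 10.45 in Lats2+/+ extracts. Cdkn2b, which encodes the neighbouring inhibitor p15, had log2 signals of 11.35, 6.54 and 10.79 in Lats2-/- and 11.28, 6.11 and 11.68 in Lats2+/+ extracts. Both genes were low in both extracts of litter 116, and neither was well above background in its wild-type extract. The genotype ratios of Cdkn2a were -0.42 and 0.14 in litters 112 and 121. In litter 116, where the wild type gives only a bound, Cdkn2a was at least 1.41-fold higher in Lats2-/- cells (measured means of 6.59 and 6.10; fitted mean of 0.07, adjusted p = 0.956, limma). For Cdkn2b they were 0.07 and -0.88 in litters 112 and 121. In litter 116 its Lats2-/- signal was at least 1.32-fold above the wild type (fitted mean of -0.13, adjusted p = 0.945, limma). This bound sets the Lats2-/- mean of 6.54 against 6.14, the wild-type mean with the detection floor used where it was higher. The measured wild-type mean was 6.11. The fitted means take the bounded litter at its measured ratio, and changed with the litters that entered. Without litters 112, 116 and 121 in turn, the mean of Cdkn2a was 0.32, -0.14 and 0.035, and that of Cdkn2b was -0.23, -0.41 and 0.25. A single array probe reads all transcripts of Cdkn2a that contain it, so that p16 and p19Arf were not told apart here.

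**Figure D5:**
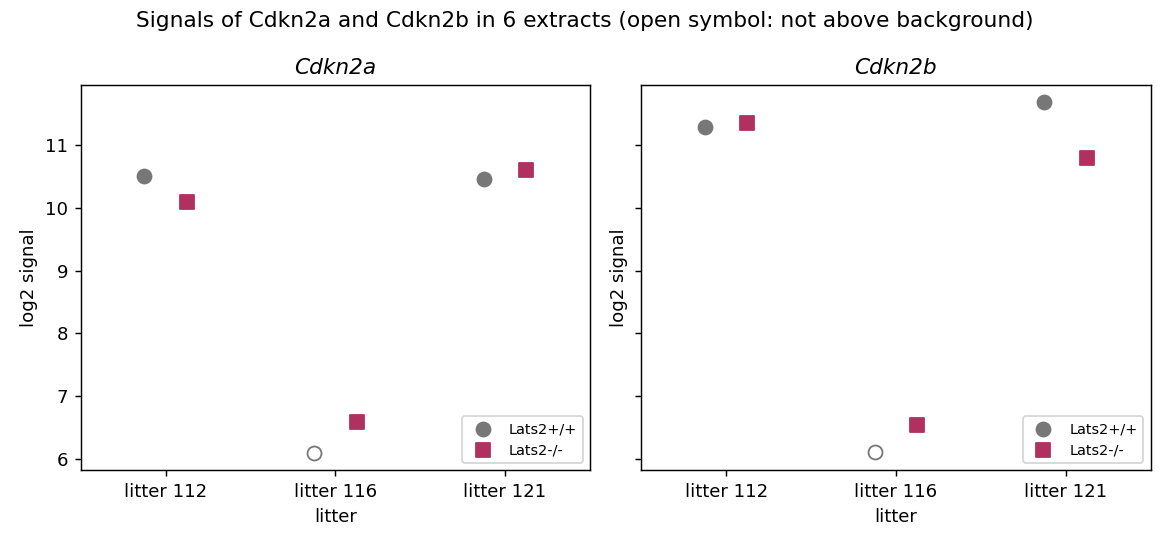
Log2 signals (y axis) of Cdkn2a and Cdkn2b in the Lats2+/+ (circles) and Lats2-/- (squares) extract of litters 112, 116 and 121 (x axis), with open symbols where the probe was not above background. Both genes lie between 6.1 and 6.6 in litter 116 and above 10 in litters 112 and 121.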

How the data were processed

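RNA of 3 Lats2-/- and 3 Lats2+/+ MEF extracts was measured on 8 two-colour Agilent arrays. The deposited scanner files give mean spot and median background intensity on a linear scale, not normalized, from Agilent Feature Extraction (10.7.3.1 per the file headers, 10.5.1.1 in the submitters' processing notes). The authors' processed intensity and log10 ratio columns, already dye normalized in Feature Extraction, and the deposited table of log10 ratios served as alternatives. Background was corrected by normexp with an offset of 50 on all spots, using limma 3.58.1 (R 4.3.3). Control spots were then removed, 860 outlier gene spots were left out, no gene spot was saturated, and loess was applied within arrays. Ratios were turned to Lats2-/- over Lats2+/+ and averaged over probe repeats and over the arrays of a litter, whose dyes are balanced. Arrays of a litter share their extracts and count as 1 replicate, and the pairing by litter comes from the labels. The small number of arrays and litters limits precision. Signals were taken after Aquantile between arrays. Tests were two-sided lmFit and eBayes against 0, with Benjamini-Hochberg adjustment over kept probes at 0.05, after a check on simulated data.

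The 9 genes and all gene lists were chosen with earlier results of these data known, so that counts over lists are descriptions. The main probe of a gene was the brightest over 6 extracts. All 9 genes were named by every probe, of the related lists (other PRC1, H2A deubiquitinases, HP1 chromobox and PRC2) the genes at an unadjusted p under 0.05, and always Phc3, Pcgf2, Cdkn2a and Cdkn2b; 1 further gene of this rule is not reported here. Where only 1 extract of a litter was above background for a probe and the other was on none of its arrays, the brighter mean was set against the mean of the higher of the detection floor and the probe's own signal ("at least"). Probe positions are those of the files (mm8); exon annotation of that build was not used here.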

Additional observations from a re-analysis of the deposited data

How the results depend on the processing

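Each ratio of the 9 genes was recomputed under 14 alternatives to the processing and, where a gene had 2 or 3 kept probes, as their mean. Cbx7 had 13 alternatives, as its probe was not above background in all 6 extracts and left that fit. Of 125 values with a test, 35 keep their ratio by construction (a filter, the methods' t-test or the unpaired fit). Of the other 90, 84 kept the direction and side of the adjusted threshold. The 6 means over all kept probes, which have no test, had the sign of the brightest probe. The sign turned in 5: without litter 116 Cbx7 became 0.31 and Cbx8 0.26, without litter 112 Phc2 became 0.068, and with slide as random block Cbx8 became 0.13 and Phc2 0.031. With slide as random block Phc1 (0.28) passed, so that 1 of the 9 genes did, against 0 under every other alternative. The cause was not tested. When 1 litter was left out, Cbx7 lay between -0.63 and 0.31, Cbx8 between -0.36 and 0.26 and Phc2 between -0.44 and 0.068. Without replicate block, in an unpaired fit of the 6 extracts, the ratios are the same by construction (Phc1 0.28, Cbx6 -0.47; adjusted p = 0.9997 in limma for both), and 0 probes passed the adjusted threshold. The alternatives moved the median of all kept probes to between -0.03 and 0.01.

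Over all kept probes, the adjusted count was 0 and became 341 with litter as random block, 204 with a dye term added and 717 with slide as random block, fits in which arrays are the observations. The count at 2-fold or more with an unadjusted p under 0.05 was 189. It was 305 with normexp offset 16, 546 with processed signals, 545 with the deposited value table, 71 with the methods' t-test, 112 without the replicate block, 414 with litter as random block, 399 with the dye term and 441 with slide as random block, and from 260 to 373 when 1 litter was left out. The number of the 9 genes with an unadjusted p under 0.05 ranged from 0 to 2. Cbx7 was -0.77 with the processed signals, and the cause was not tested. Its Lats2-/- extract of litter 116 was not above background.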
